A study of Mus musculus with 53 samples.

Results

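Histones are the proteins around which DNA is wound, and the mouse genome holds 2 classes of genes for them. The replication-dependent class is made up here of every gene whose name starts with Hist1h, Hist2h, Hist3h or Hist4h, and the variant class of every gene whose name starts with H2af, H3f3 or H1f. By these names, 81 of the 23253 genes in the expression tables were histone genes, 67 of them replication-dependent and 14 variant. The table of bulk RNA listed 27 replication-dependent and 10 variant genes among 11647 genes, and the table of single cells listed all 81 among 23235. The replication-dependent genes comprised 6 linker H1, 18 H2A, 18 H2B, 12 H3 and 13 H4 genes, and the variant genes 4 H1, 8 H2A and 2 H3 genes.

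Replication-dependent histone genes lie in clusters, carry no introns as a rule, and are transcribed mainly while DNA is copied in S phase. Their mRNA is the textbook exception among animal messengers, since it ends in a short hairpin, the histone stem-loop, in place of a poly(A) tail. The hairpin is bound by Slbp, and the mRNA is cut behind it and destroyed when replication stops. Variant histones are made throughout the cell cycle from ordinary polyadenylated mRNA and replace or supplement the replication-dependent proteins at chosen places in chromatin. H3f3a and H3f3b encode the same replacement H3, H2afz and H2afv encode H2A.Z, H2afx encodes the H2A.X that is phosphorylated at DNA breaks, H2afy and H2afy2 encode macroH2A, and H1f0 and H1fx encode linker histones. Embryonic stem cells divide quickly and spend much of their cycle in S phase.

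All samples were mouse embryonic stem cells of the R1 line, which were grown in serum with the cytokine LIF and without feeder cells. Bulk RNA came from 5 populations with 1 library each: cells with both Tbx3 alleles targeted (N/N), with 1 targeted allele (+/N) and with none (+/+), and cells with a hairpin RNA against Tbx3 (shTbx3) or against luciferase (shLuc). Wild-type R1 cells that were sorted as positive for the surface antigen SSEA1 and negative for the dye DAPI gave 45 single cells on a Fluidigm C1 chip, read from polyA RNA, and 1 pool. A list of 3078 genomic sites of a biotin- and flag-tagged Tbx3 (bfTbx3) came from a streptavidin pull-down in N/N cells that also carried the BirA ligase. The sources used here leave out how the N allele was altered and whether each population is 1 clone. With 1 library per population no difference between populations has a replicate check, and no p-value is given anywhere.

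Tbx3, the T-box transcription factor that was targeted, was read first as a check of the labels. It was at 15.1 FPKM in N/N, 22.5 FPKM in +/N and 44.4 FPKM in +/+ cells, and at 5.09 FPKM in shTbx3 against 13.8 FPKM in shLuc cells. FPKM are fragments scaled to transcript length and to the fragments mapped, so levels can be compared between genes per length within a library. The 8 markers of embryonic stem cells summed to 2010 to 3571 FPKM in the 5 bulk libraries and to 1016 to 7196 FPKM in the 45 cells. The share of summed FPKM in small RNA genes was 5.43% and 7.24% in the shTbx3 and shLuc libraries and 19.6% to 22.7% in N/N, +/N and +/+, so the 2 sets stand apart beyond Tbx3. The number of fragments per library is not given, and the precision of a bulk value is therefore unknown.

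The stem-loop was looked for in the genome itself, since it is what separates the classes at the level of RNA. The search took 16 bases within 200 bases behind the stop codon (mm9, GENCODE M1). They were made of 2 G, 3 pyrimidines, 6 middle bases rich in T that start with T and end with A, 3 purines and 2 C. The stem-loop was present in 62 of the 65 replication-dependent genes that have a coding model (95.4%), a median of 30.5 bases behind the stop codon (range 21 to 58), against 1 of 12 variant genes. Among 10580 other annotated genes with a stop codon on the same chromosomes, 2 held it (0.0189%), namely Hist1h2br, a histone gene by its name that neither expression table lists, and Tmem194. The 26 bases around it are shown for the genes that lead the values below, with the 16 bases of the hairpin in capitals and with the position on mm9 and the strand.
Hist1h4d, chr13:23673814-23673839, plus strand: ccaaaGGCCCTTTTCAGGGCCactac
Hist1h4k, chr13:21842014-21842039, minus strand: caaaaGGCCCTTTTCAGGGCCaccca
Hist1h4b, chr13:23849230-23849255, plus strand: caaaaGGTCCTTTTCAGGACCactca
Hist1h2ae, chr13:23662532-23662557, minus strand: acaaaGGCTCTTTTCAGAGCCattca
Hist1h2bc, chr13:23776511-23776536, plus strand: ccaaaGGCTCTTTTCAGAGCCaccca
Hist1h3e, chr13:23653767-23653792, minus strand: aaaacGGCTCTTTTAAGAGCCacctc
Hist1h3g, chr13:23627753-23627778, plus strand: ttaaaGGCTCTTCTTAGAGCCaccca
H2afx, chr9:44143318-44143343, plus strand: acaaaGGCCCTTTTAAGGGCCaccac

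The stem differed between histone types in a regular way. The form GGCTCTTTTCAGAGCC was held by 38 replication-dependent genes, none of them an H4 gene, and the form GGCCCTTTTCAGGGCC by 8, all of them H4 genes. H2afx was the variant gene with a stem-loop, 46 bases behind its stop codon, and its annotated transcript runs on for 816 bases behind the hairpin. Such continuation was not particular to H2afx, as 20 of the 62 replication-dependent genes with a stem-loop had over 100 annotated bases behind it. Hist2h2bb, Hist2h2be and Hist1h2an had a coding model and no match in the window searched.

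Many members sit close together and resemble each other, which bears on the values below. Of the 67 replication-dependent genes 53 lie on chromosome 13, 10 on chromosome 3, 3 on chromosome 11 and 1 on chromosome 6, while the 14 variant genes are spread over 9 chromosomes. A stretch of at least 100 bases at 98% identity or more elsewhere in the genome was held by 36 of the 67 replication-dependent and 3 of the 14 variant genes. The share of the transcript model with such a copy was 99.6% in Hist1h3e, 100% in Hist1h4k, 56.3% in Hist1h2ae, 52.9% in Hist1h2bc, 81.0% in H2afz, 36.5% in H3f3a and 35.6% in H3f3b. Hist1h4d, Hist2h2bb, H2afx, H2afy, H2afv, H2afj, H1f0 and H1fx had none. Bulk reads were 26 or 100 bases long, per the labels, and how the authors assigned a read that fits several copies is not given, so values of the genes with copies are uncertain.

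In the bulk libraries the replication-dependent class stood far below the variant class. The 27 replication-dependent genes summed to 50.1 FPKM in N/N, 48.0 in +/N, 48.96 in +/+, 202 in shTbx3 and 135 in shLuc cells. The 10 variant genes summed to 640 FPKM in N/N, 635 in +/N, 866 in +/+, 697 in shTbx3 and 623 in shLuc cells. Both hairpin libraries thus exceeded the 3 allele libraries in the replication-dependent sum, and +/+ had the highest variant sum. As shares of all summed FPKM, the replication-dependent genes came to 0.0142% in N/N, 0.0146% in +/N, 0.0143% in +/+, 0.0517% in shTbx3 and 0.0392% in shLuc cells. In bulk RNA, fewer cells in S phase, less RNA per cell and poorer capture of RNA without a poly(A) tail cannot be told apart. How RNA was selected for the bulk libraries is not stated here.

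**Figure D1:**
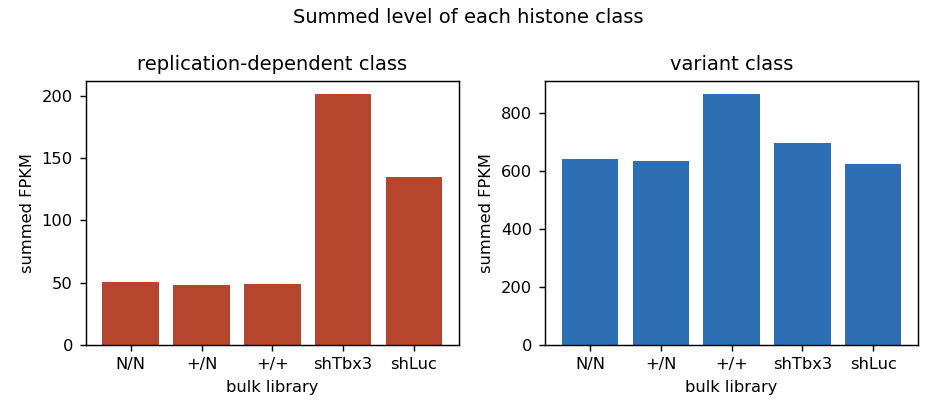
Summed FPKM of the 27 replication-dependent genes (left) and of the 10 variant genes (right) in the 5 bulk libraries, 1 library per bar, on separate linear axes that start at 0. The replication-dependent sum was 202 and 135 FPKM in the shTbx3 and shLuc libraries and 48.0 to 50.1 FPKM in the 3 allele libraries.

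The H2A.X gene H2afx was the highest histone gene in every library, at 258 FPKM in N/N, 253 in +/N, 366 in +/+, 234 in shTbx3 and 185 in shLuc cells. Next on average came H3f3b, a gene of the replacement H3, at 57.1 FPKM in N/N, 66.8 in +/N, 69.9 in +/+, 139 in shTbx3 and 117 in shLuc cells, and then the macroH2A gene H2afy. H2afy was at 92.9 FPKM in N/N, 72.6 in +/N, 103 in +/+, 60.5 in shTbx3 and 61.1 in shLuc cells. The order of H3f3b and H2afy was not the same in all libraries, with H2afy above H3f3b in the 3 allele libraries and below it in both hairpin libraries. All 10 variant genes were at 5 FPKM or more in every library, and the lowest, H2afy2, ran from 5.22 FPKM in N/N cells to 10.4 FPKM in shLuc cells.

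Among replication-dependent genes the allele libraries held low values throughout. At 1 FPKM or more were 20 of 27 in N/N, 20 in +/N, 17 in +/+, 26 in shTbx3 and 25 in shLuc cells, and at 5 FPKM or more 1 in N/N, 1 in +/N, 2 in +/+, 13 in shTbx3 and 8 in shLuc cells. The highest in the allele set were Hist1h2aa, an H2A gene known in mouse for its testis form, at 5.14 FPKM in N/N and 6.89 FPKM in +/+ cells, and Hist1h2bc, an H2B gene, at 5.71 FPKM in +/N cells. In both hairpin libraries the H4 gene Hist1h4d was highest, at 28.1 FPKM in shTbx3 and 19.2 FPKM in shLuc cells.

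By type, H4 and H3 genes differed most between the hairpin and allele libraries. The 8 H4 genes summed to 13.1 FPKM in N/N, 14.4 in +/N, 12.1 in +/+, 87.6 in shTbx3 and 48.1 in shLuc cells, and the 4 H3 genes to 5.22, 4.58 and 4.79 FPKM in N/N, +/N and +/+ cells and to 41.1 FPKM in shTbx3 and 31.8 FPKM in shLuc cells. Hist1h3e led the H3 sum in both hairpin libraries. Its model and those of Hist1h3a, Hist1h3c and Hist1h3g have near-identical copies elsewhere, so the H3 sums are uncertain. The H1 genes varied least between libraries, with sums of 8.80 FPKM in N/N, 7.15 in +/N, 7.04 in +/+, 13.7 in shTbx3 and 11.9 in shLuc cells. H2A genes summed to 9.26 to 12.1 FPKM in the allele libraries and to 22.8 FPKM in shTbx3 and 14.9 FPKM in shLuc cells, and H2B genes to 12.4 to 12.9 FPKM in the allele libraries and to 36.6 FPKM in shTbx3 and 27.9 FPKM in shLuc cells.

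**Figure D2:**
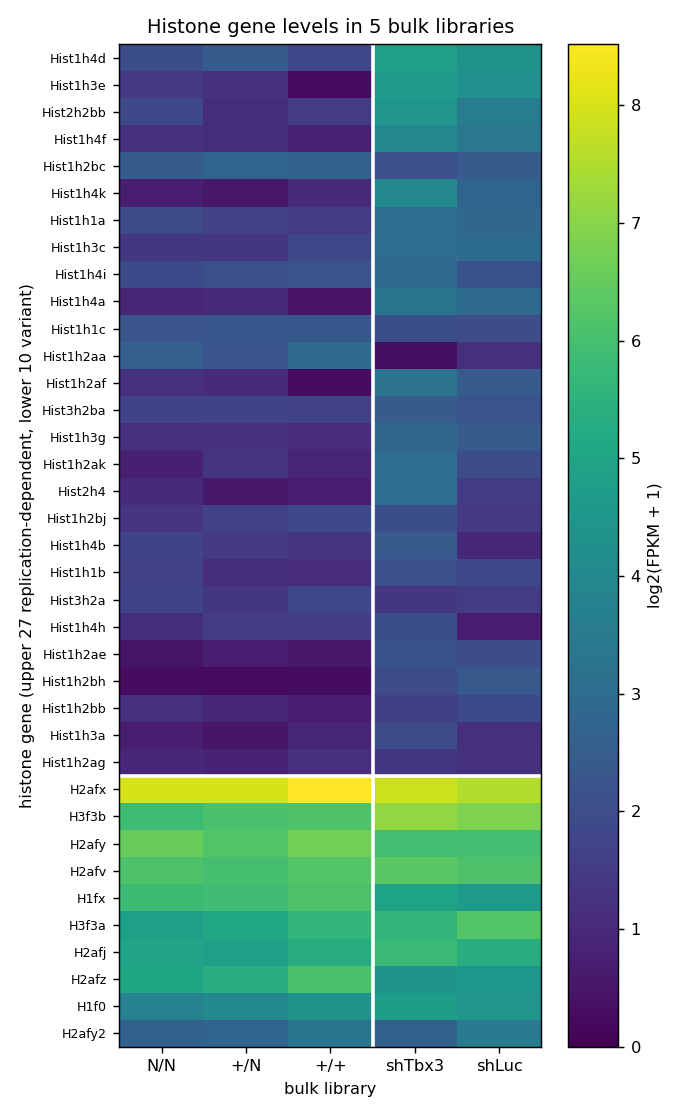
Level of each of the 37 histone genes of the bulk table as log2(FPKM + 1), with libraries in columns and genes in rows, the 27 replication-dependent genes above the white line and the 10 variant genes below it, each block in falling order of the mean. The upper block is dark in the 3 allele libraries and brighter in the 2 hairpin libraries, and H2afx is brightest in every column.

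The comparison of N/N with +/+ cells asked what goes with the loss of both intact Tbx3 alleles. Differences are log2 ratios of FPKM with a pseudocount of 1, for genes that reached 1 FPKM in at least 1 library of the pair, and a gene was called at 2-fold on that scale. All 10 variant genes read lower in N/N, with a median log2 difference of -0.42, while the replication-dependent genes had 12 of 22 higher and a median of 0.07, and the median of all genes was -0.03. The only variant gene past 2-fold was H2afz, at 31.97 FPKM in N/N against 65.8 FPKM in +/+ cells (log2 difference -1.02). The only replication-dependent gene past 2-fold was the H3 gene Hist1h3e, at 1.74 FPKM in N/N against 0.194 FPKM in +/+ cells (1.20), a low level in both. Hist1h3e met the 1 FPKM filter through N/N alone. Of all 11478 genes tested, 6193 read lower in N/N, 1.37% were at least 2-fold higher and 1.92% at least 2-fold lower.

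The other variant genes differed by less. H3f3a was at 26.7 FPKM in N/N against 49.4 FPKM in +/+ cells (-0.86), which is a larger difference than that of H3f3b (57.1 against 69.9 FPKM, -0.29), although the 2 genes encode the same protein. H2afx differed by -0.50, H2afy2 by -0.69, H1f0 by -0.60 (12.6 FPKM in N/N against 19.6 FPKM in +/+ cells), H2afj by -0.35, H1fx by -0.32, H2afy by -0.15 and H2afv by -0.10, all on the log2 scale. With the median of well-expressed genes set to 0, or with small RNA genes left out of the scaling, all 10 stayed below 0, and H2afz was short of 2-fold under the first of these settings. Hist1h2aa was at 5.14 FPKM in N/N against 6.89 FPKM in +/+ cells (-0.36) and Hist1h2bc at 4.52 against 5.31 FPKM (-0.19), the 2 replication-dependent genes that reached 5 FPKM in the pair.

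The comparison of +/N with +/+ cells asked the same of 1 targeted allele, and it shares the +/+ library with the comparison above. All 10 variant genes read lower in +/N, with a median log2 difference of -0.50 where the median of all genes was -0.10, and 9 of 10 did so after that shift was removed, H3f3b (66.8 FPKM in +/N against 69.9 FPKM in +/+ cells) changing sign. None passed 2-fold, and neither did any of 22 replication-dependent genes, of which 12 were higher, with a median of 0.05 (15 of 22 and 0.16 after the shift was removed, with Hist1h1c, Hist1h4h and Hist1h4i changing sign and 1 gene past 2-fold). Of all 11459 genes 7447 read lower in +/N as deposited, 0.698% were at least 2-fold higher and 1.21% at least 2-fold lower. H2afz was at 39.3 FPKM in +/N against 65.8 FPKM in +/+ cells (-0.73), H2afy2 at 5.75 against 9.02 FPKM (-0.57), and H3f3a at 33.0 against 49.4 FPKM (-0.57). H2afx was at 253 FPKM in +/N against 366 FPKM in +/+ cells (-0.53), H2afj at 27.03 against 38.8 FPKM (-0.51) and H2afy at 72.6 against 103 FPKM (-0.50). Of the replication-dependent genes at 5 FPKM or more, Hist1h2aa was at 3.76 FPKM in +/N against 6.89 FPKM in +/+ cells (-0.73) and Hist1h2bc at 5.71 against 5.31 FPKM (0.09).

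Markers of other cell types differed in both comparisons with +/+. The 5 endoderm markers in the table summed to 5.90 FPKM in N/N, 11.0 in +/N and 34.2 in +/+ cells, and the 5 fibroblast markers to 256 FPKM in N/N, 286 in +/N and 166 in +/+ cells. Vim alone was at 188 FPKM in N/N, 218 in +/N and 130 in +/+ cells. Of the 5 fibroblast markers 4 were higher in N/N and 5 in +/N than in +/+ cells. The part of any of these markers in the variant histone differences was not tested.

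Between N/N and +/N cells the classes differed little. No histone gene passed 2-fold, against 0.317% of all 11362 genes higher and 0.308% lower in N/N. The medians were 0.01 for 22 replication-dependent genes, -0.09 for the 10 variant genes and 0.07 for all genes, and that of the replication-dependent genes turned to -0.08 with the median of well-expressed genes set to 0, where Hist1h3c, Hist1h4f and H2afx changed sign. The largest variant differences were H2afy at 92.9 FPKM in N/N against 72.6 FPKM in +/N cells (0.35), H3f3a at 26.7 against 33.0 FPKM (-0.30) and H2afz at 31.97 against 39.3 FPKM (-0.29).

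The comparison of shTbx3 with shLuc cells asked what goes with a lower Tbx3 level in otherwise wild-type cells. Here the replication-dependent genes leaned upwards, with 22 of 27 higher in shTbx3, and all genes did so too, with 7318 of 11342 higher. The median log2 difference of the replication-dependent genes was 0.37, against 0.14 for all genes and 0.23 for the 10 variant genes. With the median of well-expressed genes set to 0, the replication-dependent count was 18 of 27 and the median 0.21, with Hist1h1c, Hist1h2ae, Hist1h2ag and Hist1h3c changing sign. At least 2-fold higher as deposited were 5 of the 27, against 2.81% of all 11342 genes, and none was 2-fold lower, against 0.987%. All but 1 of the 5 were H4 genes.

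Hist2h4 was at 7.29 FPKM in shTbx3 against 1.88 FPKM in shLuc cells (log2 difference 1.52), Hist1h4k at 14.98 against 5.66 FPKM (1.26), and the H2A gene Hist1h2ak at 7.49 against 3.01 FPKM (1.08). The remaining 2, named because they passed, were Hist1h4b at 4.28 FPKM in shTbx3 against 0.944 FPKM in shLuc cells (1.44) and Hist1h4h at 3.18 against 0.601 FPKM (1.38). Hist1h4b and Hist1h4h met the 1 FPKM filter through shTbx3 alone. With a pseudocount of 5 none of the 5 genes passed 2-fold. Higher by less than 2-fold were Hist2h2bb (20.8 against 11.1 FPKM, 0.84), Hist1h2af (8.43 against 4.43 FPKM, 0.80), Hist1h4i (6.53 against 3.44 FPKM, 0.76), Hist1h4f (14.3 against 9.44 FPKM, 0.55), Hist1h4d (28.1 against 19.2 FPKM, 0.52), Hist1h3e (24.9 against 18.998 FPKM, 0.38) and Hist1h3g (6.03 against 4.45 FPKM, 0.37), with shTbx3 first in each. Hist1h2aa was the replication-dependent gene with the most negative difference, at 0.272 FPKM in shTbx3 against 1.26 FPKM in shLuc cells (-0.83).

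The variant genes went both ways in the hairpin pair and none passed 2-fold. H2afj, an H2A gene, was at 55.1 FPKM in shTbx3 against 38.7 FPKM in shLuc cells (0.50), H2afx at 234 against 185 FPKM (0.33), H1fx at 29.7 against 24.1 FPKM (0.29) and H1f0 at 25.5 against 20.9 FPKM (0.28). Higher by less were H3f3b (0.25) and H2afv (80.6 against 69.6 FPKM, 0.21), while H2afy (-0.01) and H2afz (19.1 FPKM in shTbx3 against 21.0 FPKM in shLuc cells, -0.13) were close to 0. H2afy2 was at 5.26 FPKM in shTbx3 against 10.4 FPKM in shLuc cells (-0.86), and H3f3a at 48.95 against 75.1 FPKM (-0.61), opposite in sign to H3f3b. With small RNA genes left out of the scaling H2afv changed sign, and there as well as with the median set to 0, H2afy2 passed 2-fold.

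Marker levels of other cell types also differed in this pair. The summed level of 3 listed primitive streak markers was 65.6 FPKM in shTbx3 against 2.18 FPKM in shLuc cells, with all 3 past 2-fold. The 4 listed B cell and antigen presentation genes summed to 6.08 FPKM in shTbx3 against 75.6 FPKM in shLuc cells, with all 4 past 2-fold, and the 5 listed fibroblast markers to 134 against 50.9 FPKM. In that last sum Vim alone was at 126 against 44.9 FPKM. Of the 5 fibroblast markers 4 were higher in shTbx3, while Thy1 was lower (2.85 against 5.81 FPKM). Col1a2 and Postn were under 1 FPKM in both libraries. The part of any of these markers in the histone differences was not tested.

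The 2 hairpin libraries stood apart from the 3 allele libraries in most of the replication-dependent genes that the bulk table lists. Both exceeded all 3 allele libraries in 19 of 27 replication-dependent genes and were below all 3 in 3 (Hist1h1c, Hist1h2aa and Hist1h2bc), where 37% and 19.6% of all 11639 genes at 1 FPKM or more in any library did so. Of the 19, Hist1h2ae, Hist1h2bh and Hist1h3a were under 1 FPKM in all 3 allele libraries. They entered this count through the hairpin libraries alone. Of the 10 variant genes, H1f0 and H3f3b were above, and H1fx, H2afx, H2afy and H2afz below. The labels give both shLuc and +/+ cells as wild type for Tbx3, but Tbx3 itself was at 13.8 FPKM in shLuc against 44.4 FPKM in +/+ cells (-1.62), so this pair is not free of a difference in Tbx3.

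In that pair 14 of 27 replication-dependent genes were at least 2-fold higher in shLuc and 1 at least 2-fold lower, against 5.68% and 5.88% of all 11568 genes, with a median log2 difference of 1.12 against 0.01 for all genes. Of the 14, Hist1h2ae, Hist1h2af, Hist1h2ak, Hist1h2bb, Hist1h2bh, Hist1h3e, Hist1h4a and Hist1h4f were under 1 FPKM in +/+ cells. They met the 1 FPKM filter through shLuc alone, the library where they are high. Hist1h3e was at 18.998 FPKM in shLuc against 0.194 FPKM in +/+ cells (4.07), Hist1h4f at 9.44 against 0.720 FPKM (2.60), Hist1h4a at 6.92 against 0.360 FPKM (2.54) and Hist1h4d at 19.2 against 2.52 FPKM (2.52). Hist2h2bb followed at 11.1 FPKM in shLuc against 1.81 FPKM in +/+ cells (2.11), Hist1h4k at 5.66 against 1.08 FPKM (1.68), the linker gene Hist1h1a at 6.36 against 1.78 FPKM (1.40) and the H3 gene Hist1h3c at 7.03 against 2.62 FPKM (1.15). Hist1h2aa ran the other way, at 1.26 FPKM in shLuc against 6.89 FPKM in +/+ cells (-1.80), and the linker gene Hist1h1c was at 3.01 against 4.14 FPKM (-0.36). With small RNA genes left out of the scaling 12 genes were at least 2-fold higher and Hist1h2ag changed sign. Among the 18 genes without a near-identical copy elsewhere, 8 were at least 2-fold higher and the median was 0.82.

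The variant class had a median of -0.05 in the same pair, with none at least 2-fold higher and 2 at least 2-fold lower. The 2 were H2afz, at 21.0 FPKM in shLuc against 65.8 FPKM in +/+ cells (-1.60), and H1fx, at 24.1 against 70.3 FPKM (-1.51). H2afx was at 185 FPKM in shLuc against 366 FPKM in +/+ cells (-0.98) and passed 2-fold once the median of well-expressed genes was set to 0 or small RNA genes were left out, a scaling in which H1f0 and H2afy2 changed sign. H3f3b was at 117 against 69.9 FPKM (0.73), H3f3a at 75.1 against 49.4 FPKM (0.60) and H2afy at 61.1 against 103 FPKM (-0.75). Genes that are often used as references differed as well, with Tbp at 25.1 FPKM in shLuc against 11.8 FPKM in +/+ cells (1.03) and Actb at 421 against 1147 FPKM (-1.44), and the labels do not tie either read length to a library. The B cell and antigen presentation genes summed to 75.6 FPKM in shLuc against 8.75 FPKM in +/+ cells, the fibroblast markers to 50.9 against 166 FPKM and the endoderm markers to 12.1 against 34.2 FPKM. The part of any of these in the histone differences was not tested.

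**Figure D3:**
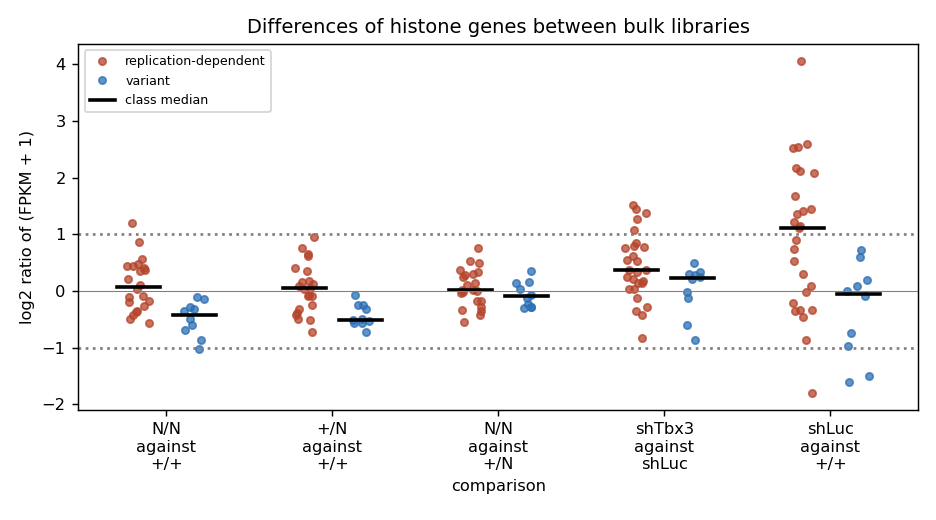
Log2 ratio of (FPKM + 1) of each tested histone gene in the 5 comparisons, with a point per gene (replication-dependent left, variant right in each comparison), a black bar at the class median and dotted lines at 2-fold. The class medians were 0.07 and -0.42 in N/N against +/+, 0.37 and 0.23 in shTbx3 against shLuc, and 1.12 and -0.05 in shLuc against +/+.

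Of the genes that make and handle histone mRNA and protein, few differed by 2-fold. The lists held 22 genes of histone mRNA transcription and 3′ processing, 25 S-phase genes and 21 G2/M genes. A further 16 genes were listed with chaperones of newly made histones, and 19 with chaperones and remodellers of variant histones. Cenpa, itself a variant histone, was among the 19. None of these genes passed 2-fold in N/N against +/+, +/N against +/+, N/N against +/N or shTbx3 against shLuc. Of all genes, 0.308% to 2.81% passed in each direction in these pairs, so 0 in lists of this size is near that share. The processing list had medians of -0.03 in N/N against +/+, -0.15 in +/N against +/+ and 0.19 in shTbx3 against shLuc. The medians of all genes were -0.03, -0.10 and 0.14 in the same order. Slbp, which binds the stem-loop, was at 32.8 FPKM in N/N, 29.6 in +/N and 45.4 in +/+ cells, and at 75.4 FPKM in shTbx3 and 63.5 FPKM in shLuc cells. Eri1, a nuclease that trims histone mRNA, was at 6.73 FPKM in N/N, 7.10 in +/N and 11.6 in +/+ cells, and at 9.98 FPKM in shTbx3 and 15.3 FPKM in shLuc cells.

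The S-phase and G2/M lists leaned differently from pair to pair, in the values as deposited. In N/N against +/+ cells 6 of 25 S-phase genes were higher, with a median of -0.14, and 19 of 21 G2/M genes were higher, with a median of 0.23. Of all 11478 genes 5285 were higher there, with a median of -0.03. In N/N against +/N cells both lists had more genes higher, 20 of 25 S-phase genes with a median of 0.09 and 19 of 21 G2/M genes with a median of 0.16. All genes leaned the same way, with 7735 of 11362 higher and a median of 0.07. In shTbx3 against shLuc cells 21 of 25 S-phase genes were higher, with a median of 0.23, and 8 of 21 G2/M genes, with a median of -0.04. Of all 11342 genes 7318 were higher in shTbx3, with a median of 0.14. The DNA clamp Pcna was at 73.6 FPKM in N/N against 111 FPKM in +/+ cells (-0.59) and at 162 FPKM in shTbx3 against 97.9 FPKM in shLuc cells (0.72). Whether these levels bear on the replication-dependent histones was not tested.

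In shLuc against +/+ cells 5.68% of all 11568 genes were at least 2-fold higher and 5.88% at least 2-fold lower. The chaperone lists held a few genes past 2-fold in that pair, all of them higher in shLuc. They were Hells (111 FPKM in shLuc against 41.3 FPKM in +/+ cells), Nasp (315 against 126 FPKM), Npm1 (559 against 233 FPKM) and Nap1l1 (101 against 44.7 FPKM) among the 16 genes listed for new histones, and Dek (97.3 against 35.5 FPKM) and Atrx (27.4 against 11.4 FPKM) among the 19 listed for variant histones. Nasp carries H3 and H4, and Atrx with Daxx places the replacement H3 at repeats. Of the 22 processing genes Ccne2, a cyclin that drives histone transcription, passed 2-fold, at 5.56 FPKM in shLuc against 1.90 FPKM in +/+ cells (1.18). S-phase genes had a median of 0.02 there, with Prim1 higher (1.05) and E2f1 lower (-1.37) past 2-fold. Of 21 G2/M genes 20 were higher in shLuc, with a median of 0.44, and Ccnb1 (1.61) passed 2-fold. Of all 11568 genes 5877 were higher, with a median of 0.01.

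Single cells were read next, in a table that was scaled apart from the bulk table, so that levels are not compared between them. Exact zeros are frequent in it and are given as listed at 0, since genes that every cell uses are affected too: Gapdh reached 1 FPKM in 4 of 45 cells and Pou5f1 in 11 of 45, while Actb did so in all 45. Cells had 1642 to 3295 genes at 1 FPKM or more, and their relative depth, estimated from the spacing of low values, was 0.146 to 1.62. The median depth was 1.25 in the first 23 cell columns and 0.638 in the last 22. The cells share 1 population, chip method and table, and are not replicates.

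The classes differed in how many cells showed them in polyA RNA. Of the 67 replication-dependent genes, 31 reached 1 FPKM in no cell, 32 in 1 to 4 cells, 1 in 5 to 9 cells and 3 in 20 or more cells. Of the 14 variant genes, 3 did so in no cell, 4 in 1 to 4 cells and 7 in 20 or more cells. Over all 23235 genes 7.99% were at 1 FPKM or more in at least 20 cells and 44.6% in at least 1. At least 1 replication-dependent gene reached 1 FPKM in 40 of 45 cells and at least 1 variant gene in all 45, with a median of 3 and 6 genes per cell.

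The 3 replication-dependent genes seen in many cells were Hist1h4d, Hist1h2ae and Hist1h2bc. Hist1h4d reached 1 FPKM in 29 of 45 cells (64.4%, with a Clopper-Pearson 95% interval of 48.8% to 78.1% that covers counting error only), with a median of 24.5 FPKM and a highest value of 1269 FPKM in cell 6. Hist1h2ae was likewise found in 29 cells, with a median of 11.0 and a highest value of 318 FPKM in cell 18, and Hist1h2bc in 20 cells (44.4%, 29.6% to 60.0%), with a median of 0.823 and a highest value of 1403 FPKM in cell 74. Together they held 80.4% of all replication-dependent FPKM summed over the cells, 82.5% in the first block of columns and 78.8% in the second. The next gene by cells was Hist1h2af, in 9 cells and never above 2.98 FPKM, and Hist1h1b, Hist1h1e, Hist1h2ak, Hist1h2bp, Hist1h4h and Hist2h2ac followed with 4 cells each.

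Some of the remaining genes were high in a few cells and listed at 0 elsewhere. The linker gene Hist1h1a reached 626 FPKM in cell 72 and was listed at 0 in 40 cells, Hist1h1b reached 682 FPKM in cell 74, and Hist1h2aa reached 517 FPKM in cell 15 and was listed at 0 in 43. In cell 3 nearly the whole sum of 179 FPKM came from Hist1h4i, at 178 FPKM. The 29 replication-dependent genes listed at 0 in every cell included Hist1h1c, Hist1h3c and Hist2h2bb, and 7 of the 29 were at 1 FPKM or more in the pool.

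The 7 variant genes seen in 20 or more cells differed in level, with H3f3b and H2afz highest. H3f3b and H2afz reached 1 FPKM in 45 of 45 cells (lower end of the 95% interval 92.1%), H2afy in 44, H3f3a in 42, H2afx in 34, H2afv in 32 and H2afj in 28. H3f3b ran from 84.8 to 1639 FPKM with a median of 498 FPKM, H2afz from 13.015 to 956 FPKM with a median of 232 FPKM, and H2afy had a median of 110 FPKM. The medians of H3f3a, H2afx, H2afv and H2afj were 53.5, 22.8, 8.86 and 6.81 FPKM. The linker variants H1f0 and H1fx reached 1 FPKM in 3 and 2 cells, and the oocyte linker gene H1foo, the testis gene H1fnt and H2afb1 were listed at 0 in all.

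Summed over a class, cells ranged widely in both classes, and down to 0 in the replication-dependent class alone. The replication-dependent sum ran from 0 FPKM in cell 11 to 2167 FPKM in cell 74, with a median of 354 FPKM, and the variant sum from 224 to 2597 FPKM, with a median of 1044 FPKM. The replication-dependent sum was under 10 FPKM in 9 cells, above 500 FPKM in 20 cells and above the variant sum of the same cell in 6. Without Hist1h4d, Hist1h2ae and Hist1h2bc its median was 10.4 FPKM. By block of columns the median of the full sum was 212 FPKM in the first and 588 FPKM in the second, and that of the variant sum 1078 and 1044 FPKM.

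**Figure D4:**
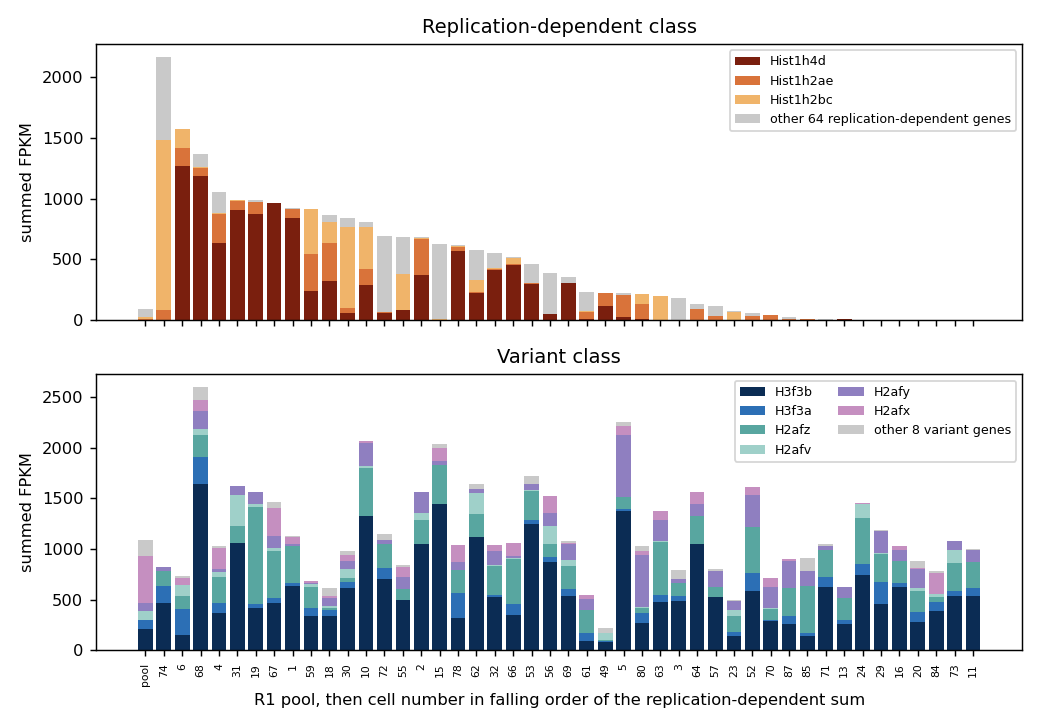
Summed FPKM per library in the R1 pool (leftmost bar) and in 45 single cells in falling order of the replication-dependent sum, for the replication-dependent class (upper panel, split into Hist1h4d, Hist1h2ae, Hist1h2bc and the other 64 genes) and for the variant class in the same order (lower panel). The replication-dependent bars fall from 2167 FPKM to 0 while the variant bars, from 224 to 2597 FPKM, show no such order.

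The replication-dependent sum of a cell, as read from polyA RNA, showed little relation to the level of S-phase genes. Histone mRNA that ends in the stem-loop has no poly(A) tail, so the sum may miss much of it, which was not tested. Over the 45 cells the replication-dependent sum had a Spearman rho of -0.06 and a Pearson r of 0.0033 with the mean log2(FPKM + 1) of 25 S-phase genes, and of -0.10 and -0.07 with that of 21 G2/M genes, both sums on the log2 scale. The variant sum had a rho of -0.09 with S-phase and of 0.15 with G2/M genes. These values describe cells that share 1 table and differ in depth: the S-phase mean itself had a rho of 0.54 with the number of genes detected, and the replication-dependent sum had a rho of -0.01 with that number and of -0.19 with relative depth. Within the first and second block of columns the rho of the replication-dependent sum with S-phase genes was -0.04 and -0.20, and without Hist1h4d, Hist1h2ae and Hist1h2bc it was 0.20 over the 45 cells. Of the cells with sums under 10 FPKM, cell 11 had an S-phase mean of 1.89 and cell 29 one of 3.48, and of those with high sums, cell 6 had one of 4.27 and cell 1 one of 1.21, where all cells ran from 1.21 to 4.60.

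**Figure D5:**
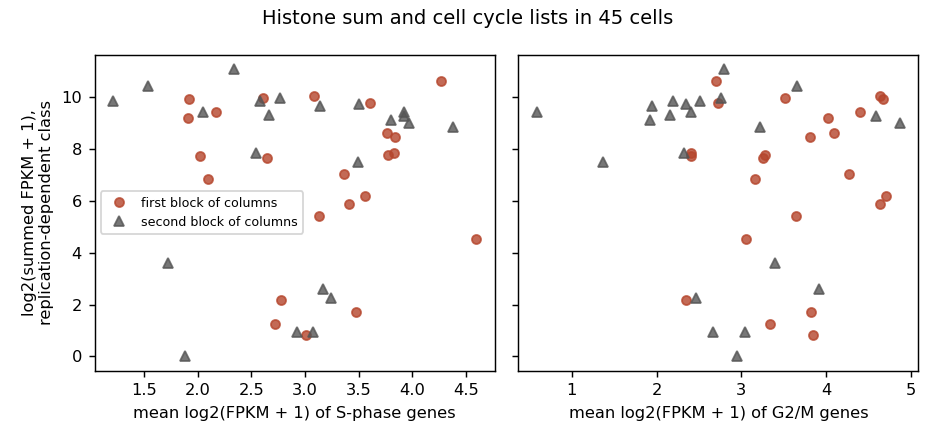
Replication-dependent sum of each of the 45 cells as log2(FPKM + 1) against the mean log2(FPKM + 1) of 25 S-phase genes (left) and 21 G2/M genes (right), with circles for the first 23 cell columns and triangles for the last 22. Cells with high and with low sums are found across both horizontal axes, with a Spearman rho of -0.06 and -0.10 over 45 cells.

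Between members, Hist1h4d and Hist1h2ae had the highest rho of 7 pairs compared, 0.52 over 45 cells, with 0.39 and 0.58 in the 2 blocks of columns. Among cells numbered 1 to 32 it was 0.76 (20 cells), and among cells numbered 49 to 87 it was 0.10 (25 cells). Hist1h4d with Hist1h2bc gave 0.20 and Hist1h2ae with Hist1h2bc 0.24. H3f3a and H3f3b, which encode 1 protein, gave -0.27 over 45 cells, with -0.62 in cells numbered 1 to 32 and 0.0 in cells numbered 49 to 87. H2afz with H2afv gave -0.13, with H3f3b 0.24 and with Hist1h4d 0.04.

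The pool was made from the same sorted population, and its replication-dependent sum was low beside the cells. It came to 91.8 FPKM in the pool, which 31 of 45 cells exceeded, against a mean of 475 FPKM over cells. The variant sum was 1092 FPKM in the pool, which 18 cells exceeded, against a mean of 1163 FPKM. The pool held more members at a low level, with 21 replication-dependent genes at 1 FPKM or more where the median cell had 3. Of all 11997 genes tested 55.7% were at least 2-fold higher in the pool than in the mean of cells. The count of 21 is therefore not read as a trait of histones. The pool had 0.018% of its summed FPKM in replication-dependent and 0.214% in variant genes.

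The 3 genes seen in many cells were all lower in the pool. They were picked by their values in these same cells, so this comparison is not independent of that choice. Hist1h4d was at 2.44 FPKM in the pool against a mean of 235 FPKM over cells (log2 difference -6.10), Hist1h2ae at 4.26 against 58.5 FPKM (-3.50) and Hist1h2bc at 14.1 against 88.3 FPKM (-2.56). Hist1h2bc and Hist1h4i (12.9 FPKM) led the pool in this class, followed by the H2B gene Hist3h2ba at 8.48 FPKM and Hist1h1c at 6.11 FPKM. Among variant genes H2afz was at 4.46 FPKM in the pool, below each of the 45 cells, against a mean of 252 FPKM (-5.53). H2afx was at 468 FPKM in the pool, above every cell, against a mean of 54.3 FPKM (3.08), and H1fx at 42.6 FPKM in the pool, also above every cell, against 0.442 FPKM (4.92). H1f0 was at 46.6 FPKM in the pool against 1.71 FPKM over cells (4.14), H3f3b at 209 against 594 FPKM (-1.50), H2afv at 85.9 against 40.0 FPKM (1.08), H2afj at 44.1 against 19.1 FPKM (1.17), H3f3a at 86.2 against 71.5 FPKM (0.27) and H2afy at 78.04 against 125 FPKM (-0.67).

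Genes across the table also differed between the pool and the cells, more of them higher in the pool than lower. Of 11997 genes at 1 FPKM or more in either, 55.7% were at least 2-fold higher in the pool and 13% at least 2-fold lower, with a median of 1.18. Of 30 replication-dependent genes tested 16 were at least 2-fold higher and 13 at least 2-fold lower, with a median of 1.03, and of 11 variant genes 6 and 2, with a median of 1.08. The lower pool values of Hist1h4d, Hist1h2ae, Hist1h2bc and H2afz ran against the commoner direction. Outside the histones, Actb was at 1108 FPKM in the pool against a mean of 19751 FPKM over cells, and Pou5f1 at 1370 FPKM in the pool against 54.4 FPKM.

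Tbx3 sites were set beside the gene starts to ask whether the tagged factor lay near histone genes. Within 20 kb of the start, 8 of 67 replication-dependent genes (11.9%) and 3 of 14 variant genes (21.4%) had a site, against 2158 of 21828 placed genes (9.89%). The 8 replication-dependent genes shared 2 sites in the chromosome 13 cluster, so they are not independent cases. The site at chr13:21842234-21842609 (mm9) had the authors' score of 59.94 and lay over the start of Hist1h4k, 3167 bases from Hist1h2ak, 3383 from Hist1h2bn and 15331 from Hist1h4j. The site at chr13:21878266-21878788 had a score of 86.74 and lay near Hist1h2an, Hist1h2bp, Hist1h3i and Hist1h1b. H2afv had a site over its start (chr11:6344281-6344881, score 62.95), H2afy a site 6374 bases away with a score of 446, and H2afb1 a site 7346 bases away with a score of 82.0. Over all 3078 sites scores ran from 50.01 to 791 with a median of 76.65.

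Of the 8 replication-dependent genes beside sites, the bulk table lists Hist1h4k, Hist1h2ak and Hist1h1b. Hist1h4k and Hist1h2ak were among the 5 genes at least 2-fold higher in shTbx3 than in shLuc cells, while Hist1h1b differed by 0.25, H2afv by 0.21 and H2afy by -0.01 in that pair on the log2 scale. In N/N against +/+ cells Hist1h4k was at 0.634 against 1.08 FPKM (-0.35), Hist1h2ak at 0.666 against 0.848 FPKM (-0.15) and Hist1h1b at 2.12 against 1.12 FPKM (0.56). The T-box core GGTGTGA, searched on both strands, was in 220 of 1603 sites on the chromosomes read (13.7%). It was in none of 60 replication-dependent promoters and 1 of 11 variant promoters, against 4.61% of 26954 promoters of other genes, where a promoter is 250 bases before to 50 bases after a start in RefSeq (GRCm38.p6).

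Other letters set the classes and the types apart. CCAAT, on either strand, was in 51 of 60 replication-dependent promoters (85%), 7 of 11 variant promoters (63.6%) and 41.0% of others. It was in every promoter of the 6 H1, 17 H2A, 15 H2B and 10 H3 genes matched and in 3 of 12 H4 promoters. TATAAA was in 58.3% of replication-dependent, 9.09% of variant and 15.6% of other promoters. The octamer ATTTGCAT was in 7 of 17 H2A and 7 of 15 H2B promoters and in no H1, H3 or H4 promoter, against 1.92% of others. A match is only a description of these letters.

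The 150 bases before the start are shown for the 2 genes whose start lies in a Tbx3 site and for members that lead the bulk values, from RefSeq and placed on mm9 by an exact match. Capitals mark the motif CCAAT, the motif TATAAA and the octamer, each on either strand.
Hist1h4k, chr13:21842423-21842572, minus strand: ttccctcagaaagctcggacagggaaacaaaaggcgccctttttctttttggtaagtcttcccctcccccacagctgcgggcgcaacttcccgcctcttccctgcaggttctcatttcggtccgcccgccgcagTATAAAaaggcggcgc
Hist1h4d, chr13:23673287-23673436, plus strand: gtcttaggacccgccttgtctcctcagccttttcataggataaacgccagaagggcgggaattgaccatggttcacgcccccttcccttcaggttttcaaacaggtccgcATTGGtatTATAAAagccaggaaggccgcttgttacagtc
Hist2h2bb, chr3:96073473-96073622, plus strand: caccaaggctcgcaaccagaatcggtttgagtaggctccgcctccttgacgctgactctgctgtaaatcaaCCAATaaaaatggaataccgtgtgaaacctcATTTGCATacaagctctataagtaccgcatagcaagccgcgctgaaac
Hist1h3e, chr13:23654255-23654404, minus strand: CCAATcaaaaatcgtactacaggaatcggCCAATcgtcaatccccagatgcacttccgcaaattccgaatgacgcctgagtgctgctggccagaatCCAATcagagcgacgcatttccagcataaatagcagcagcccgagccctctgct
H2afv, chr11:6344447-6344596, minus strand: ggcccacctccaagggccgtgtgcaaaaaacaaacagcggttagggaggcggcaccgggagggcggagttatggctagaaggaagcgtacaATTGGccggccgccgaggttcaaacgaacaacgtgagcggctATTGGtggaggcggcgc
H3f3b, chr11:115885819-115885968, minus strand: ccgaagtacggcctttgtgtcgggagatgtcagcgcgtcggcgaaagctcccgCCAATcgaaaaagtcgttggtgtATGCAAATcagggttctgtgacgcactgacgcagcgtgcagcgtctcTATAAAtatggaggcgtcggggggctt

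All 150 bases shown for Hist1h4k and for H2afv lie inside the Tbx3 site named above. Hist1h4k, the H4 gene that was at 14.98 FPKM in shTbx3 and 5.66 FPKM in shLuc cells, has a TATAAA close to its start and no CCAAT in these bases, and Hist1h4d has a CCAAT next to a TATAAA. Hist2h2bb has a CCAAT and the octamer, and Hist1h3e has 3 copies of CCAAT. H2afv has 2 copies of CCAAT and no TATAAA, while H3f3b has a CCAAT, an octamer and a TATAAA and was the only variant promoter with a TATAAA or an octamer among the 11 matched.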

How the data were processed

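RNA levels are FPKM values as the authors deposited them. Per the submitters' processing notes, the tools included TopHat, Cufflinks, Cuffdiff and Cuffnorm on mm9, without versions, and Bowtie 1.0 and HOMER. How reads that fit several places, strand and low values were treated is not stated. The bulk table (5 libraries) and the single-cell table (45 cells and 1 pool) were scaled separately, and no values were compared between them. The site list holds 1 score per site as deposited by the authors, and the tool behind the score is not named. Fragment totals are not given, so precision is unknown.

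Members were taken by gene name. Members, gene lists and tests were chosen with earlier results of these data known. Differences are log2((a + 1)/(b + 1)) over all genes of a table, for genes that reached 1 FPKM in either library, called at 2-fold. With 1 library per group no test was run. Named genes were 9 variant genes fixed by name, per comparison up to 10 members of each class with the largest difference among those that reached 5 FPKM, the highest members by class and type, and up to 3 genes per pathway list. Others that are named, such as Hist1h4b and Hist1h4h, were chosen after their values were seen. Intervals for shares of cells are Clopper-Pearson at 95%. Stem-loops, site distances and near-identical copies (blastn 2.17.0, at least 100 bases at 98% identity) used mm9 with GENCODE M1, in which all 81 members were placed. RefSeq promoters (GRCm38.p6) matched 71 members. Scripts used python 3.11.15, pandas 2.3.3, numpy 2.4.6, scipy 1.17.1 and matplotlib 3.10.9, and were checked on simulated data. Alternatives were other pseudocounts, filters, folds, scalings, members without copies, cell subsets and site windows.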

Additional observations from a re-analysis of the deposited data

How the results depend on the processing

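No paired analysis was possible because each population has 1 library. Of 280 alternative values for 40 results, 232 stayed within the tolerance set for their kind (1.5-fold for counts and median differences, 0.2 for rho) and 48 moved, the cause of which was not tested. Of these values 12 changed sign, all with a reported value between -0.10 and 0.15. The replication-dependent median was -0.28 in N/N against +/+ and -0.32 in +/N against +/+ with a filter at 5 FPKM, -0.02 in N/N against +/+ with no filter, and in N/N against +/N -0.08 with the median set to 0 and -0.06 without small RNA genes. The rho of the replication-dependent sum was 0.11 with S-phase genes in cells 1 to 32 and 0.07 with G2/M genes in cells 49 to 87, and that of the variant sum with S-phase genes was 0.06 in cells 49 to 87 and 0.03 in the second block of columns. The other 3 sign changes are among the rho values given below. The settings by near-identical copies, by block of columns and without Hist1h4d, Hist1h2ae and Hist1h2bc were chosen after seeing the data. With a pseudocount of 0.1, replication-dependent genes at least 2-fold higher numbered 2 in N/N against +/+, 3 in +/N against +/+ and 2 in N/N against +/N, and those at least 2-fold lower 1 in +/N against +/+, 1 in N/N against +/N, 1 in shTbx3 against shLuc and 2 in shLuc against +/+. With a pseudocount of 5, higher ones numbered 0 in N/N against +/+, 0 in shTbx3 against shLuc and 5 in shLuc against +/+, where the median was 0.454 and 0 were lower, and 0 variant genes were lower in N/N against +/+. With a filter at 5 FPKM, higher ones numbered 0 in N/N against +/+, 3 in shTbx3 against shLuc and 8 in shLuc against +/+, with a median of 1.895 in the last. At 1.5-fold, higher replication-dependent genes numbered 2, 4, 1 and 10 in N/N against +/+, +/N against +/+, N/N against +/N and shTbx3 against shLuc, and lower ones 1 in +/N against +/+, 1 in shTbx3 against shLuc and 2 in shLuc against +/+. At 1.5-fold, lower variant genes numbered 4 in N/N against +/+, 1 in +/N against +/+, 2 in shTbx3 against shLuc and 4 in shLuc against +/+, where 2 were higher. With the median set to 0, 0 variant genes were 2-fold lower in N/N against +/+. With the median set to 0 or without small RNA genes, 1 replication-dependent gene was 2-fold higher in +/N against +/+ and 1 variant gene 2-fold lower in shTbx3 against shLuc. Without members with near-identical copies, 0 were higher in N/N against +/+ and 8 in shLuc against +/+. A replication-dependent gene was detected in 44 cells at 0.1 FPKM. The rho with S-phase genes was 0.1991 for the replication-dependent sum without Hist1h4d, Hist1h2ae and Hist1h2bc, and -0.3789 for the variant sum in cells 1 to 32. The rho with G2/M genes was 0.1087 for the replication-dependent sum in the first block of columns, and for the variant sum -0.1564 in cells 1 to 32 and 0.5185 in cells 49 to 87. Against the median over cells, the pool's median difference was 1.614 for replication-dependent and 2.531 for variant genes. Sites lay near 17 replication-dependent (25.4%) and 5 variant genes (35.7%) within 50 kb, against 18.8% of all placed genes, near 1 variant gene (7.14%) within 5 kb, against 4.53%, and near 4 replication-dependent genes (5.97%) for sites with scores above the median, against 4.93%. Depth is not given for the bulk libraries, and low FPKM values of replication-dependent genes carry an unknown counting error.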
